A study of Homo sapiens with 2 samples.

Results

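The custom long noncoding RNA (lncRNA) probe class of an Agilent human lncRNA array was described, that is, every non-control oligo whose name starts with oebiotech_. The class held 28491 of the 77162 oligos on the array, and 85473 of the 175556 non-control spots. It was measured in LNCaP, a human line of prostate carcinoma whose growth depends on androgen. Before treatment the culture was held in serum stripped with charcoal, which removes hormones, and RNA was taken at 0 h and 2 h of treatment with 10 nM dihydrotestosterone (DHT), an androgen that binds the androgen receptor. The labels of both samples name the 10 nM dose, and the growth medium was free of phenol red. The RNA was copied into cRNA carrying Cyanine-3-CTP, so that each spot gave a single-colour intensity.
There was 1 array at each time, so no difference between the times had a replicate check and no test was made. Precision is limited by that number of arrays, and the SDs given are over the spots of an oligo within an array. The oligos were compared with the 11868 oligos named A_23_P, a class of Agilent's own catalogue on the same arrays, because the files do not pair either class with genes. For the same reason the identity of the cells was not checked against LNCaP marker genes. RNA of a whole culture was measured, so fewer cells with a transcript and less transcript in each cell cannot be told apart.

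lncRNAs are transcripts that do not code for a long protein, and many are spliced and polyadenylated like mRNAs while others stay unspliced in the nucleus. Some serve as hosts from which small RNAs are cut, such as microRNAs from a hairpin or snoRNAs from introns, and others are transcribed from the opposite strand of a gene or away from a gene's start. An oligo array reads a transcript through a single short stretch of its sequence, so the signal depends on the stretch chosen as well as on the amount of RNA. Each oligo of the class was 60 bases long.

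A few of the 28491 oligos overlap a known microRNA hairpin. A search of 1562 human hairpins of RefSeq (GRCh38.p14) found 12 oligos that share at least 30 bases with a hairpin on the same strand. They are shown 5′ to 3′ with the mature microRNA in capitals, except for MIR133A1, where the capitals mark the 31 bases shared with the hairpin, and for oebiotech_16098, where all 60 bases lie in the hairpin and are in capitals.
oebiotech_05476 (MIR615): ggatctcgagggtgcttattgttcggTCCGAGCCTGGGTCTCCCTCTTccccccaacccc
oebiotech_04575 (MIR210): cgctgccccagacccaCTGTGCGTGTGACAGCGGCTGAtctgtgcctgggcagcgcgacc
oebiotech_08332 (MIR675): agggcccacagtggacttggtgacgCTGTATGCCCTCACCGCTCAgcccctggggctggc
oebiotech_27574 (MIR1244): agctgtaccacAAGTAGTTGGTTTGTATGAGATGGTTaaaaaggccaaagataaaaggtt
oebiotech_16098 (MIR1244): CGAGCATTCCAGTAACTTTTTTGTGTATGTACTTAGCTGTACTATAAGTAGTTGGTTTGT
oebiotech_00005 (MIR202): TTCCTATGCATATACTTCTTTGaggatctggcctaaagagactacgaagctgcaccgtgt
oebiotech_05326 (MIR196A1): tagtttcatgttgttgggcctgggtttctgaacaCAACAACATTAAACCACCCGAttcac
oebiotech_05414 (MIR196A2): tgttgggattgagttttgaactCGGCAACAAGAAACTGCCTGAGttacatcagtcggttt
oebiotech_05458 (MIR10B): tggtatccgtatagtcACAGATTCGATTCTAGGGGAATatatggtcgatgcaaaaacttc
oebiotech_14946 (MIR142): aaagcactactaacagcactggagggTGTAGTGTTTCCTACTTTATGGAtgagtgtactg
oebiotech_18901 (MIR16-1): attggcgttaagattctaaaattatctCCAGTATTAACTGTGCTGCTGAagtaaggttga
oebiotech_14258 (MIR133A1): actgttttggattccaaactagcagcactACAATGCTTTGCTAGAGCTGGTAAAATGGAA
In GRCh38.p14 these hairpins lie at chr12:54033950-54034045 (+) for MIR615, chr11:568089-568198 (-) for MIR210, chr11:1996759-1996831 (-) for MIR675, chr10:133247511-133247620 (-) for MIR202, chr17:48632490-48632559 (-) for MIR196A1 and chr12:53991738-53991847 (+) for MIR196A2. The hairpins of MIR10B, MIR142, MIR16-1 and MIR133A1 lie at chr2:176150303-176150412 (+), chr17:58331232-58331318 (-), chr13:50048973-50049061 (-) and chr18:21825698-21825785 (-). Both MIR1244 oligos match 4 near-identical hairpin genes, so their signal cannot be assigned to 1 locus. Such an oligo reads a longer transcript that contains the hairpin, and not the mature microRNA.

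Some named lncRNAs measured by the class are shown next, because their signals are among those the text returns to. Gene names and chromosomes were taken from the main table of the study. Capitals mark cytosine, since the share of that base went with detection, as given further on.
oebiotech_17693 (MALAT1, chromosome 11): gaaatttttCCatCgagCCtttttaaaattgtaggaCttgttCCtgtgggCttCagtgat
oebiotech_16752 (GAS5, chromosome 1): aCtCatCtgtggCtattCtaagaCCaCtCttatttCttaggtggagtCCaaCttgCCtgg
oebiotech_09219 (LINC00308, chromosome 21): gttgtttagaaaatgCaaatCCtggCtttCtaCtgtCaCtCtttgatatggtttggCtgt
oebiotech_21382 (GOLGA8B, chromosome 15): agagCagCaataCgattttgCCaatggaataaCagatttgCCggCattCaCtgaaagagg
oebiotech_20175 (HERC2P9, chromosome 15): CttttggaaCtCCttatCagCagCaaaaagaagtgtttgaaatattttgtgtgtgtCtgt
oebiotech_05345 (LINC01296, chromosome 14): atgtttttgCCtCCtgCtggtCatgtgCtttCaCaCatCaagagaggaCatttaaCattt
oebiotech_20049 (FTX, chromosome X): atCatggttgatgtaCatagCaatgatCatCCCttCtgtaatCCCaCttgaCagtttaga
oebiotech_00606 (AC006369.2, chromosome 2): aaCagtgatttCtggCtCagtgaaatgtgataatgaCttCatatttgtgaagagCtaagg
These 8 oligos hold between 7 and 15 cytosines of 60 bases. The oligo of AC006369.2 has the fewest, with 7, and the oligo of GAS5 the most, with 15.

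The class was detected less often than the A_23_P class at both times. Detection of an oligo required that the spots found positive, significant and well above background made up a share of 0.5 or more of those free of an outlier flag. At 0 h, 19.2% of the custom oligos (5459) and 41.2% of the A_23_P oligos were detected. At 2 h the shares were 34.5% (9818) and 62.4%. Counted by spot, 19.2% of the custom spots were detected at 0 h and 34.6% at 2 h, against 39.96% and 62.3% of the A_23_P spots. The calls were made on each array before any scaling, and the 2 h array was the brighter one, as given further on. Whether the gain in detection at 2 h belongs to the treatment or to the array was not tested. Detection at 0 h was nearly nested within detection at 2 h. Both arrays detected 5415 of the custom oligos, the 2 h array alone 4403, the 0 h array alone 44 and neither 18629. The last group is 65.4% of the class, against 37.3% of the A_23_P oligos. The A_21_P class, also on the array, was detected less often still, with 14.9% of 14948 oligos at 0 h and 25.6% at 2 h.
Every custom oligo was printed on 3 spots, whereas 10687 of the A_23_P oligos had 1 spot, 291 had 3 and 890 had 7. Among the 291 A_23_P oligos with 3 spots, 23.4% were detected at 0 h and 45.02% at 2 h, which is nearer to the custom class than the rest of the A_23_P class is. The spots of a custom oligo mostly gave the same call. At 0 h, 4782 oligos had all 3 spots above background, 667 had 2, 750 had 1 and 22292 had none. At 2 h, 9018 had all 3, 790 had 2, 917 had 1 and 17766 had none. The spots of both classes ran from row 1 to row 1064 of the array with median rows of 532 and 534.

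Where an oligo was detected on both arrays, the custom class and the A_23_P class were close in signal. Signals are given on the log2 scale after quantile normalization of all non-control spots of both arrays. The custom oligos detected on both arrays had a median signal of 8.32 at 0 h, with quartiles of 7.45 and 9.77, and of 8.23 at 2 h, with quartiles of 7.10 and 9.75. The A_23_P oligos had medians of 8.60 and 8.66. The spots of a custom oligo agreed closely, with a median SD of 0.15 at 0 h and 0.11 at 2 h, against 0.14 and 0.09 for A_23_P oligos with 3 spots.
The distribution of the custom class was bottom-heavy. By the mean log2 signal of both arrays, 67.7% of the custom oligos lay under 5, 15.7% from 5 to 7, 9.93% from 7 to 9, 4.14% from 9 to 11, 1.61% from 11 to 13 and 0.93% at 13 or more. Of the A_23_P oligos, 40.9% lay under 5 and 1.24% at 13 or more. No spot was saturated. The 10 brightest custom oligos had log2 signals from 17.6 to 18.85 over both times, and the brightest, oebiotech_16263, changed from 18.76 to 18.85. The GC share of the 10 ran from 35% to 83.3%, so the brightest signals came from oligos of very unequal composition.

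After quantile normalization, the custom oligos detected on both arrays were lower at 2 h more often than higher, and the A_23_P oligos as a class were nearer to balance. The median log2 difference (2 h minus 0 h) was -0.41 for the custom class, with quartiles of -0.97 and 0.38 and a range from -2.80 to 5.64. It was -0.09 for the A_23_P class, with quartiles of -0.65 and 0.60. The 68 A_23_P oligos with 3 spots, the layout of the custom class, had a median of -0.47, which is below that of the custom class. The difference was above 0 for 35.5% of the custom oligos and for 46.2% of the A_23_P oligos. Of the other classes, A_21_P had a median of -0.60, A_19_P of -0.45, A_33_P of -0.32, A_24_P of -0.01 and A_32_P of 0.14.
The sign of these medians depends on the scaling, and that of the custom median also on which oligos enter. Over the custom oligos detected on at least 1 array it was 0.16 after the same quantile normalization. Before any scaling the 2 h array was brighter, with a median log2 difference over detected spots of 0.84 for the custom class and 1.22 for the A_23_P class. With no scaling the median of the custom oligos detected on both arrays was 0.83 and that of the A_23_P oligos 1.12, and with a shift to the 5 spike-in probes detected on both arrays they were 1.21 and 1.502. The gap between the classes was -0.33 with quantile normalization of all spots together. It was smaller with each class quantile normalized on its own, where the medians were -0.41 for the custom class and -0.27 for the A_23_P class.

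Counted past 2-fold, the custom class had about the array's share of higher oligos and somewhat more lower ones. One array or both detected 9862 custom oligos, of which 2876 (29.2%) were higher at 2 h by 2-fold or more, where 27.9% of all such oligos on the array were. Another 1502 (15.2%) were at least 2-fold lower, where 13.1% of all were. In the A_23_P class the shares were 27.5% higher and 9.34% lower. With each class quantile normalized on its own they were 20.2% and 14.4%, against 29.9% and 14.7% of the custom oligos. Most of the higher custom oligos, 2240 of 2876, were detected at 2 h only, and with a lower bound in place of the signal of the undetected array 1429 were past 2-fold higher and 1339 lower. Among the 1502 lower ones, 206 were detected on 1 array only. As 44 custom oligos in all were detected at 0 h only, most of these 206 were detected only at 2 h. Among the 5415 custom oligos detected on both arrays, 636 (11.7%) were at least 2-fold higher, where 12.0% of all were, and 1296 (23.9%) were at least 2-fold lower, where 19.2% of all were. The corresponding A_23_P shares were 13.8% and 12.3%. Of all changed custom oligos detected on at least 1 array, 65.7% were higher, but 42.6% were when arrays were set equal at their 75th percentile over all spots, 99.7% with no scaling and 99.96% with the spike-in shift.
Of the custom oligos that neither array detected, 16768 were within 2-fold. A further 1366 had a signal at least 2-fold lower at 2 h, with a median SD over spots of 0.59 at 0 h and 0.27 at 2 h, and 491 were at least 2-fold higher, with median SDs of 0.17 and 0.26. The spots of the lower ones thus agreed less at 0 h. The SD at 0 h was above 1 for 26.0% of the lower ones and for 0.81% of the higher ones. Another 4 custom oligos had no spot without an outlier flag on one of the arrays and were given no difference. None of these oligos was counted as changed.

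At each signal level above 7, the custom class was lower at 2 h relative to the A_23_P class. For oligos detected on both arrays, the median log2 difference from a mean signal of 7 to 9 was -0.27 in 2623 custom oligos and close to 0 in 2514 A_23_P oligos. From 9 to 11 it was -0.20 and -0.03, from 11 to 13 it was -0.22 and 0.01, and at 13 or more it was -0.32 and -0.08. From 5 to 7, near the limit of detection, both classes were far lower at 2 h, with -1.04 in 890 custom oligos and -0.90 in 383 A_23_P oligos. In that bin only oligos bright enough at 0 h to be detected there entered, since the lowest detected signal was 5.65 at 0 h and 4.64 at 2 h.
The share of lower oligos dropped with level, and that of higher oligos was even from 7 upward. At least 2-fold lower were 52.8% of the custom oligos from 5 to 7, 21.4% from 7 to 9, 17.6% from 9 to 11, 11.1% from 11 to 13 and 1.89% at 13 or more. At least 2-fold higher were none of the 890 from 5 to 7, 12.8% from 7 to 9, 15.9% from 9 to 11, 15.9% from 11 to 13 and 14.3% at 13 or more. Among the 265 brightest oligos, at 13 or more, 38 were thus higher and 5 lower.

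The GC share of an oligo went with whether it was detected. Of the custom oligos with a GC share under 35%, 1.99% were detected at 0 h, from 35 to 40% 10.2%, from 40 to 45% 18.5% and from 45 to 50% 21.8%. The share was 41.0% from 50 to 55%, 46.4% from 55 to 60% and 69.2% of the 480 oligos at 60% or more. At 2 h the shares ran over the same bins from 5.96% to 80.2%. The A_23_P class had the same order at 0 h, from 9.73% under 35% to 71.4% at 60% or more. The classes were apart from 35 to 40%, with 10.2% against 22.9%, and from 45 to 50%, with 21.8% against 47.2%, and nearly level at 60% or more.
The custom class had a mean GC share of 41.9% and the A_23_P class of 43.6%. Custom oligos were unevenly spread over GC, with 22.8% of the class at exactly 27 G or C bases of 60 and 17.2% at exactly 21. A gap in detection between the classes remained at equal GC. With the A_23_P oligos weighted to the GC shares of the custom class, 37.1% of them were detected at 0 h and 60.3% at 2 h.

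Among the bases G and C, detection of the custom class was ordered by the share of cytosine and not by that of guanine. Of the custom oligos with under 15% C, 7.24% were detected at 0 h, and the share was 10.1% from 15 to 20%, 15.7% from 20 to 25%, 29.9% from 25 to 30% and 59.5% of the 2235 oligos with 30% C or more. Over the same bins of G share, detection at 0 h was 24.3%, 19.9%, 17.5%, 17.3% and 20.8%, with no steady order. Detection also went down with the share of A, from 55.7% of the 305 custom oligos with under 15% A to 13.97% of those with 30% A or more, and with the share of T, from 35.8% to 17.3%. The shares of the bases add up to the whole oligo, so these orders are not independent. In the A_23_P class detection went up with G as well, over a narrower range than with C, from 35.9% to 48.4% against 25.5% to 70.0%. The custom oligos detected on both arrays held a mean of 24.9% C and 20.8% G, and those detected on neither held 19.4% C and 21.3% G.
The contrast held at a fixed GC share. From 40 to 45% GC, 35.6% of the custom oligos in which C exceeded G by 10 points or more were detected at 0 h (n = 1697), against 10.2% of those in which G exceeded C by as much (n = 1864). From 45 to 50% GC the shares were 43.4% and 11.3%. The A_23_P class showed the same direction less steeply, with 49.3% and 34.9% from 40 to 45% GC. A run of 4 cytosines (CCCC in the oligo as written, counted on that strand only) was in 10.4% of the custom oligos and 10.9% of the A_23_P oligos. At 0 h, 54.7% of the 2962 custom oligos with the run were detected and 15.04% of those without it. A run of 4 guanines (GGGG) was in 10.5% of the custom oligos, of which 20.8% were detected at 0 h, against 19.0% without it. Single oligos did not follow the order strictly. Among the hairpin oligos printed above, that of MIR615 with 23 cytosines was detected on both arrays and that of MIR16-1 with 8 on neither, but oebiotech_16098 with 8 and oebiotech_27574 with 6 were detected on both, and those of MIR196A1 with 15 and MIR202 with 14 on neither.

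The difference between the times also went with composition in both classes. For custom oligos detected on both arrays, the median log2 difference was -0.17 from 35 to 40% GC, -0.25 from 40 to 45%, -0.38 from 45 to 50%, -0.52 from 50 to 55%, -0.62 from 55 to 60% and -0.63 at 60% or more. For A_23_P oligos it was 0.49, 0.32, 0.14, -0.51, -0.60 and -0.70 over the same bins. The classes were therefore apart from 35 to 50% GC and close to each other from 50% upward. Under 35% GC the order was reversed, with -0.08 in 9 custom and -0.55 in 22 A_23_P oligos. In the A_23_P class the median dropped between the bins on either side of 50%, from 0.14 to -0.51, and the custom class had no such step.
Between GC shares under 40% and of 50% or more, the custom medians were -0.17 (n = 1020) and -0.59 (n = 1398), which is a difference of 0.42. In the A_23_P class they were 0.46 and -0.57, which is a difference of 1.03. Over custom oligos detected on at least 1 array the difference was 1.24, so its size depends on the detection rule. Within bins of signal the custom difference was 0.24 from 5 to 7, 0.56 from 7 to 9, 0.59 from 9 to 11, 0.56 from 11 to 13 and 0.11 at 13 or more. Whether these differences belong to the treatment or to the arrays was not tested.
The difference was ordered by the share of cytosine too. The median log2 difference of custom oligos was 0.25 with under 15% C, 0.13 from 15 to 20%, -0.41 from 20 to 25%, -0.50 from 25 to 30% and -0.54 with 30% C or more. The share at least 2-fold higher went over these bins from 21.2% to 5.74%. Custom oligos with CCCC had a median of -0.75 (n = 1612), and those without it had one of -0.17. Of the 1296 custom oligos at least 2-fold lower, 43.6% held CCCC, compared with 9.91% of the 636 that were at least 2-fold higher and 28.3% of those within 2-fold.

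With signal and GC share matched, the custom class still lay below the A_23_P class, most of whose oligos had 1 spot. Medians were compared in 26 cells of signal by GC with at least 20 oligos of each class, which held 96.2% of the custom oligos detected on both arrays. Weighted by the custom oligos in each cell, the custom median was lower by 0.30 on the log2 scale, that is, the matched difference was -0.30. The custom median was the lower one in 21 of the 26 cells. From 7 to 9 in signal the difference was -0.47 from 35 to 40% GC, -0.44 from 40 to 45% and -0.38 from 45 to 50%, but 0.15 from 50 to 55%, 0.07 from 55 to 60% and 0.05 at 60% or more. The matched difference was nearest to 0, at -0.09, when each class was quantile normalized on its own. A shift of a whole array cancels in it, so the shifts and no scaling all gave -0.35 and say nothing of its stability. The number of spots could not be matched as well, since the 68 A_23_P oligos with 3 spots were too few, and their unmatched median of -0.47 lay below the custom median of -0.41.

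Oligos of the 2 classes that read the same stretch of RNA mostly gave close values. There were 250 pairs of a custom and an A_23_P oligo that shared at least 30 bases on the same strand. In these pairs 48.4% of the custom oligos and 51.2% of their partners were detected at 0 h, and 66.4% and 68.0% at 2 h, well above the custom class as a whole. Both oligos of a pair had the same call in 91.6% of pairs at 0 h and in 92.8% at 2 h. In the 113 pairs with both oligos detected on both arrays, the median log2 difference between the times was 0.06 for the custom oligos and 0.05 for their partners. The custom value minus the partner's had a median of 0.00, quartiles of -0.15 and 0.11 and a range from -1.16 to 1.18. The differences of partners had the same sign in 111 of the 113 pairs, with a Pearson correlation of 0.94 across pairs, which share arrays, sequence and composition. Some A_23_P oligos, such as A_23_P166336, were the partner in several pairs, so the pairs are not independent. Of the 33 pairs whose A_23_P oligo was past 2-fold, 25 had a custom oligo past 2-fold the same way.
Among the pairs with the longest shared stretch, of 59 bases, oebiotech_25404 changed from 9.48 to 8.38 and A_23_P166508 from 9.88 to 8.66, which are log2 differences of -1.10 and -1.22. Likewise oebiotech_12012 changed by -1.05 and A_23_P253841 by -0.94, oebiotech_07348 by -0.93 and A_23_P106898 by -1.001, and oebiotech_16480 by 0.53 and A_23_P361085 by 0.48. In a pair sharing 58 bases, oebiotech_00438 changed by 0.42 and A_23_P115149 by 0.25. Both oligos of each of these 5 pairs were on the same side of 0.
Custom oligos also overlapped one another. There were 2795 such pairs, which involved 3899 oligos or 13.7% of the class, so the oligos are not independent readings. In the 579 pairs detected on both arrays the size of the gap between partners had a median of 0.12. Of the custom oligos 2446 shared at least 30 bases with an A_21_P oligo, in 2648 pairs.

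Of the 12 oligos that overlap a microRNA hairpin, sharing 31 to 60 bases with it, 5 were detected on both arrays and 7 on neither, where 5415 of the 28491 custom oligos (19.0%) were detected on both. With 12 oligos, nothing is read from that gap. The oligo of MIR615, a hairpin within the HOXC gene cluster, had the highest signal, 12.55 ± 0.05 at 0 h and 12.44 ± 0.06 at 2 h (SD over 3 spots). The log2 difference was -0.11, but it was -0.80, -0.94 and -1.35 when the arrays were set equal at a percentile or median. The oligo of MIR210, a microRNA known for its induction by low oxygen, was lower at 2 h, with 7.67 ± 0.12 and 6.32 ± 0.18, which is 2.55-fold. After quantile normalization it alone of the 12 was past 2-fold, where 19.2% of all oligos detected on both arrays were at least 2-fold lower and 12.0% higher, so 1 of 5 is near the share of the array. The MIR210 oligo was lower by less, -0.68, with normexp background correction. It was higher by 0.54 under the spike-in shift and by 0.16 with no scaling. The MIR675 oligo reads the H19 transcript, an imprinted lncRNA that carries this hairpin, and had signals of 8.39 ± 0.39 and 7.61 ± 0.15. Of the MIR1244 oligos, oebiotech_16098 had 9.87 and 10.19 and oebiotech_27574 had 8.34 and 8.24.
The oligos of MIR196A1, MIR196A2 and MIR10B, which lie in HOX gene clusters, were not detected at either time, with log2 signals between 3.25 and 3.75. Neither were those of MIR142, a microRNA of blood cells, MIR16-1, MIR202 and MIR133A1, a microRNA of muscle. The detected oligos of MIR210, MIR615 and MIR675 have GC shares of 63.3 to 70.0%, the detected MIR1244 oligos have 35% and 36.7%, and the 7 undetected ones have GC shares of 35 to 45%.

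Some custom oligos lie at the starts of RefSeq genes. Against 35116 windows from 250 bases before to 50 bases after a gene start, 186 custom oligos shared at least 30 bases in the sense of the gene and 187 on the opposite strand, 360 in all or 1.26% of the class. Of the A_23_P oligos 0.41% did. These 360 oligos had a mean of 1.88 CG steps (C followed by G) against 0.70 in the other custom oligos, and 28.9% of them were detected at 0 h. Of the 54 antisense oligos detected on both arrays, 2 were at least 2-fold higher and 16 at least 2-fold lower, with a median log2 difference of -0.62. Over all oligos detected on both arrays, 12.0% were higher and 19.2% lower. Of the 54 sense oligos, 14 were at least 2-fold higher and 15 lower, with a median of -0.52. The other custom oligos had a median of -0.41, and the gene-start oligos had a mean GC share of 47.9% against 41.8%.
Examples that lie wholly before the start of a single gene are shown with CG steps in capitals, because they read RNA upstream of the annotated start. The first 4 run in the sense of the gene and had the lowest differences of such sense oligos. The last 4 run against the gene and were chosen after their values were seen, 2 from the low end of such antisense oligos and 2 from those above 0.
oebiotech_05298 (PPP1R14B): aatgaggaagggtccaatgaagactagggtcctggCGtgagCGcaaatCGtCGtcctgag
oebiotech_06211 (ZFHX3): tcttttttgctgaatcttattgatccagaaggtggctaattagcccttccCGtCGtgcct
oebiotech_01693 (HDDC3): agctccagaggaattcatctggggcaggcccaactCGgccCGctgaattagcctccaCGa
oebiotech_02255 (HDDC3): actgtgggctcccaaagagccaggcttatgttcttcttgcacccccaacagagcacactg
oebiotech_24637 (DDX6): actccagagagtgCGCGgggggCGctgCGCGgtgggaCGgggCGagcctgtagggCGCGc
oebiotech_01890 (THOC2): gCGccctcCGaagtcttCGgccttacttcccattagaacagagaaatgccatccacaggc
oebiotech_03391 (CTBP1): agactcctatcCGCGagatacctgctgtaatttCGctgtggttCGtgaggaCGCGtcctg
oebiotech_05290 (TPP1): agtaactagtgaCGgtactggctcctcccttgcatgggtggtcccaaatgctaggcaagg
They lie in GRCh38.p14 at chr11:64247119-64247178, chr16:73059117-73059176, chr15:90932625-90932684, chr15:90932747-90932806, chr11:118791806-118791865, chrX:123733229-123733288, chr4:1250139-1250198 and chr11:6619477-6619536, and each of these genes is on the minus strand. PPP1R14B encodes an inhibitor of protein phosphatase 1, and its upstream oligo changed from 9.61 ± 0.05 to 7.76 ± 0.62, a log2 difference of -1.85. The oligo upstream of ZFHX3, a homeobox transcription factor, changed from 7.40 ± 0.11 to 5.59 ± 0.16 (2 spots at 0 h, 3 at 2 h), a difference of -1.81. With the flagged spot kept it was -0.99, under 2-fold, and -1.21 in the values that the authors normalized. Both oligos upstream of HDDC3, which encodes a metal-dependent hydrolase, moved alike, with differences of -1.76 and -1.73. Against the direction of DDX6, an RNA helicase, and of THOC2, a subunit of the complex that readies mRNA for export, the differences were -1.40 and -1.27. Against CTBP1, a transcriptional corepressor, and TPP1, a lysosomal peptidase, they were 0.16 and 0.25, within 2-fold, from 7.78 to 7.94 and from 8.94 to 9.19. These were -0.06 and -0.19 with arrays set equal at the 75th percentile of all spots. Under the spike-in shift the oligos of ZFHX3, HDDC3 (oebiotech_01693), DDX6 and THOC2 turned to higher at 2 h, by 0.11, 0.08, 0.56 and 0.39.
Of the 14 higher sense oligos, 7 came from a family of near-identical genes. All 8 custom oligos that match the start of LINC01001, 7 in sense and 1 on the opposite strand, were detected on both arrays and were higher at 2 h, by 1.83 to 2.35 on the log2 scale, from signals of 6.82 to 8.76 up to 8.65 to 10.59. Some match up to 7 windows, among them those of LINC01002 and LINC01061 on other chromosomes, so the gene that gave the signal is uncertain, and 6 pairs of the 8 share at least 30 bases. The oligo oebiotech_26421, which matches the starts of NPIPA1, NPIPA5 and NPIPB2 alike, was higher by 2.09. Outside such families, oebiotech_12052 at the start of ADAMTSL4-AS1 was higher by 1.64.
Some of the brightest oligos of the class also lay at gene starts. Both oebiotech_23107, which ranked 4 in signal, and oebiotech_23108, which ranked 12, run against LINC01357, with log2 signals of 18.10 and 17.89 at 0 h and 18.01 and 17.70 at 2 h. Another oligo against the same gene, oebiotech_00149, had signals of 7.90 and 6.03. Oligos against the same gene start thus did not share a difference.

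The list of the study names the genes of 222 custom oligos, from 171 symbols, and it was drawn up from these arrays by a 2-fold change, so its counts and directions largely restate that choice and are no independent evidence. Oligos of the same genes that did not pass are not in it. Both arrays detected 104 of them, the 2 h array alone 84, the 0 h array alone 2 and neither 32. Hosts of snoRNAs, whose introns carry small nucleolar RNAs that guide rRNA modification, were higher in 22 of 24 oligos and lower in none by the 2-fold rule, where 89 of the 190 listed oligos detected on at least 1 array were higher. The 27.9% of all oligos that were higher were not chosen in this way, and nothing is read from the gap. With a lower bound in place of the undetected signal, 18 of the 24 were past 2-fold. The 8 listed oligos of GAS5 all were past 2-fold higher, with log2 differences of 1.99, 2.87 and 2.35 for the 3 detected on both arrays. So were the 10 listed oligos of SNHG1, of which 8 were detected at 2 h only, and 2 of the 3 oligos of SNHG12. With lower bounds 8 of the 10 SNHG1 oligos were past 2-fold. The 10 listed oligos of PVT1, an lncRNA on chromosome 8, were all past 2-fold higher too, by 1.101 to 1.66 for the 4 detected on both arrays, and 8 were with lower bounds. Of the 3 oligos of CTA-292E10.6, 1 was at least 2-fold lower, and none was past 2-fold higher with lower bounds.
NEAT1, which builds nuclear paraspeckles, and MALAT1, an abundant nuclear lncRNA of speckles, had 4 listed custom oligos. The oligo of MALAT1 had log2 signals of 9.60, 9.47 and 9.46 in its 3 spots at 0 h and of 14.97, 14.84 and 15.16 at 2 h. The spots of the times do not overlap, and the difference was 5.48 or 44.6-fold after quantile normalization. On the log2 scale it was 4.54 with arrays set equal at the 75th percentile of all spots and 6.57 with the spike-in shift. Of the NEAT1 oligos, oebiotech_17448 was detected on both arrays and changed from 7.84 to 12.18. The other NEAT1 oligos were detected at 2 h only. Of these, oebiotech_16404 had 6.59 at 0 h, not detected, and 10.47 at 2 h. For oebiotech_03110 the 2 h signal was the lower one, with 6.64 at 0 h, not detected, and 5.53 at 2 h.
TUG1, an lncRNA on chromosome 22, had 7 oligos, of which 6 were at least 2-fold higher and oebiotech_09070 differed by -0.98. All 3 listed oligos of MEG3, an imprinted lncRNA, were at least 2-fold lower, by -1.57, -1.23 and -1.18. Of 4 oligos of TMEM191A, 3 were detected and were at least 2-fold lower. The 150 oligos with clone names were lower more often, with 75 at least 2-fold lower and 41 higher, where 92 of the 190 detected listed oligos were lower. Among all oligos, not chosen for a change, 13.1% were. With lower bounds 69 were lower and 12 higher. Under the spike-in shift 3 oligos of the whole custom class were past 2-fold lower. The 9 with LINC names had 5 lower and 2 higher. Of the 75 lower oligos with clone names, 68 were detected on both arrays, and 2 of the 41 higher ones were. The 3 oligos of RP11-206L10.9 had higher signals at 2 h, and 2 of them were past 2-fold with lower bounds.

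The oligos printed early gave the following values by spot. The oligo of LINC00308 had log2 signals of 4.20, 3.71 and 3.26 at 0 h, none above background. At 2 h it had 8.94 and 9.04 in the spots without an outlier flag. Its bound was 10.1-fold higher after quantile normalization. Such a bound is counted from the lowest detected signal, which some undetected oligos exceeded, so it is not a strict minimum. The oligo of HERC2P9, a pseudogene, had 3.39, 3.37 and 3.35 at 0 h and 8.51, 8.52 and 8.23 at 2 h. Its bound was 6.80-fold higher. The oligos of GOLGA8B, GAS5, LINC01296 and FTX, an lncRNA of the X inactivation centre, were likewise detected at 2 h only, with bounds of 11.5, 7.75, 7.27 and 5.40-fold after quantile normalization. With normexp the log2 differences were below the log2 of these bounds, at 2.84, 2.37, 2.24 and 1.95, and those of LINC00308 and HERC2P9 were 2.94 and 2.31. In each of these oligos the highest spot at 0 h lay below the lowest at 2 h. The oligo of AC006369.2 went the other way, from 7.89, 7.68 and 7.60 to 3.79, 4.61 and 4.40. Its bound was 8.46-fold lower after quantile normalization. Its log2 difference of -3.45 was -2.13 with no scaling, -1.75 with the spike-in shift and -1.60 with normexp.
A further 6 oligos of the same table were detected on neither array, and their spots at 0 h were far apart. The oligo of RP11-438D8.2 had 4.72, 8.56 and 5.30 at 0 h, and that of LINC00689 had 4.41, 8.19 and 4.75. That of RP11-586K12.4 had 5.47, 8.19 and 5.20, and that of RP11-7M8.2 had 7.70, 3.33 and 6.40. For TNR-IT1 and ADAMTS9-AS2 the single bright spot, at 9.61 and 8.62, carried an outlier flag, and the other spots were at 3.25 to 3.32. At 2 h all spots of the 6 oligos lay between 3.27 and 3.97.

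The largest differences of the class were rises. Of the custom oligos detected on both arrays, oebiotech_25863 was highest at 5.64, from 8.87 ± 0.19 to 14.51 ± 0.10 (SD over 3 spots). It was followed by the MALAT1 oligo and by oebiotech_24626 at 5.44, from 8.58 to 14.02. The 5 largest rises ran from 5.01 to 5.64 with SDs over spots of at most 0.19. The 5 largest falls ran from -2.80 to -2.39, and 4 of them had an SD over spots at 2 h of 0.60 to 1.16. The lowest, oebiotech_23975, changed from 7.44 to 4.64 with an SD of 1.16 at 2 h, and its difference of -2.80 was -1.78 with a flagged spot kept. The oligo oebiotech_03420 changed from 9.35 to 6.70 with an SD of 0.96. Among oligos detected on both arrays, the falls were thus smaller than the rises and less even over the spots. That filter limits a fall, which must end at a detected signal. The 2 h signal of oebiotech_23975, 4.64, was the lowest detected at that time. The larger fall of AC006369.2, -3.45, was left out because its oligo was not detected at 2 h. The oligo oebiotech_24626 shares at least 30 bases with A_19_P00331618, which the study names as LOC100507645 on chromosome 11.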

How the data were processed

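Total RNA of 2 samples was hybridized, 1 array each. The authors deposited, per array, the intensity of each spot from Agilent Feature Extraction 10.7.1.1, background-corrected and not normalized between arrays, and a table of log2 values, which the authors quantile normalized. Both arrays shared a slide. Here quantile normalization, the method of the study, was applied to the intensities of all spots but controls, followed by log2. The remaining spots of an oligo were averaged once those flagged as outliers had been dropped. For an oligo detected on 1 array, the other side of a bound was its signal or the lowest detected signal, whichever was higher. Some undetected oligos had signals above the lowest detected one, such as oebiotech_03271 with 6.66 at 0 h. The bounds, and the counts made with them, are therefore no strict minimum. The code of the calls was run on simulated data, where 200 of 200 changed oligos were recovered with 1 call among 5283 unchanged ones (custom oligos, 2 h against 0 h). The changed oligos were bright at 0 h, detected on both arrays and changed by well over 2-fold, and detection at 2 h was copied from 0 h. Their recovery was thus largely fixed by the setting, and calls on oligos detected on 1 array were not covered. With 1 array per time, this check of the code does not cover variation between cultures or arrays. The normalized values were compared with those of limma 3.58.1 (R 4.3.3). Python 3.11.15, numpy 2.4.6, pandas 2.3.3 and scipy 1.17.1 were used.
The members, lists and bins were chosen with earlier results of these data known. Named oligos were those of the study's main table, the 5 largest rises and falls, genes with at least 3 listed oligos and the longest overlaps. The hairpin, gene-start, cytosine and run comparisons, and the oligos named in them, were chosen after values were seen. RefSeq sequences (GRCh38.p14) gave hairpins and gene starts. Alternatives were other scalings, background corrections, detection rules and matchings. Planned marker checks were not run, since no table paired oligos with those genes.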

Additional observations from a re-analysis of the deposited data

How the results depend on the processing

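A median or matched difference was taken as moved when it shifted by more than the median spot SD of 0.15, a share when it left its 95% binomial interval, and a count when it changed by over 1.5 times. No paired analysis was possible because there was 1 array per time. With any spot or all spots required, detection of the custom class was 21.6% or 16.9% at 0 h and 37.5% or 31.8% at 2 h. The median log2 difference was -0.27 and -0.82 with arrays set equal at the 75th percentile of spots detected on both arrays and of all spots. It was 1.21 with the spike-in shift, 0.83 with no scaling and 0.16 over oligos detected on at least 1 array. The count of higher oligos was 1902 (75th percentile of all spots), 7371 (spike-in), 6334 (no scaling), 986 (normexp), 636 (detected on both arrays), 1779 (3-fold) and 1429 (lower bounds). That of lower oligos was 2559, 3, 17 and 513 under the first 4 of these, 2868 with no detection filter and 335 at 3-fold. The matched difference was -0.086 with each class normalized alone and lay between -0.42 and -0.21 otherwise. The GC difference was 1.24 over oligos detected on at least 1 array. The causes were not tested.
With the spike-in shift and with no scaling, these log2 differences turned to higher: oebiotech_01082 (0.66, 0.28), oebiotech_01890 (0.39, 0.0087), oebiotech_04575 (0.54, 0.16), oebiotech_12012 (0.68, 0.30), oebiotech_24637 (0.56, 0.18) and oebiotech_25404 (0.47, 0.096). So did oebiotech_05476 (0.67, 0.30), oebiotech_07348 (0.96, 0.58), oebiotech_08332 (0.97, 0.59) and oebiotech_27574 (1.60, 1.22), which were under 2-fold to begin with. With the spike-in shift alone, oebiotech_01693 (0.077), oebiotech_06088 (0.21) and oebiotech_06211 (0.11) did. Matching over oligos with 3 spots gave no value, since no cell held 20 such A_23_P oligos. With 1 array per time, treatment, culture and array cannot be told apart.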

Other observations

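The letters AATAAA, which spell the common signal for adding a poly(A) tail, were in 7.37% of the custom oligos as written and in 3.88% of the A_23_P oligos. Custom oligos with these letters were detected at 0 h in 21.1% of cases and those without them in 19.0%. In the A_23_P class the order was the other way, with 33.0% and 41.5%. A run of 4 adenines was in 36.0% of the custom oligos and 27.2% of the A_23_P oligos, and the custom class held a mean of 30.5% A against 27.3%. Custom oligos with the run were detected at 0 h in 16.8% of cases, against 20.5% without it.
The custom oligos are numbered from 1 to 28491 without a gap, and 313 of the 28490 neighbouring pairs share at least 30 bases on the same strand. For 1390 neighbouring pairs detected on both arrays that do not share such a stretch, the size of the gap between their log2 differences had a median of 0.77, against 0.12 for custom pairs that overlap. The Pearson correlation of the differences of these neighbours was 0.33, as a description over pairs that share the arrays. Some neighbours read the same gene, such as oebiotech_16702 and oebiotech_16703 of GAS5.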
